A study of Homo sapiens with 4 samples.

Results

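Immune checkpoint ligands are proteins that tumour cells show to T cells or macrophages. Most of them bind a receptor that damps the immune cell, as CD274 (PD-L1) and PDCD1LG2 (PD-L2) do through PD-1, while CD80 and CD86 can either help or restrain a T cell, through CD28 or CTLA4. CD47 binds SIRPA on macrophages and signals against being engulfed, PVR is a ligand of TIGIT, CD96 and CD226, and NT5E (CD73) makes adenosine from AMP outside the cell, which restrains T cells through adenosine receptors. The 10 genes described here, CD274, PDCD1LG2, CD276, VTCN1, CD80, CD86, PVR, CD47, LGALS9 and NT5E, were taken by symbol from the 57815 genes of the authors' table, and each symbol matched 1 row.

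The study compared MDA-MB-231, a triple-negative human breast cancer cell line (oestrogen and progesterone receptors absent, ERBB2 not amplified), with LM2-4175, a cell line of the same origin with high metastasis to the lung. Both were grown untreated in DMEM with serum. Total RNA was extracted, and 2 libraries for each cell line, 4 in all, were prepared from it and sequenced. The table held 1 FPKM (mapped fragments of a gene relative to transcript length and to all mapped fragments) per gene and cell line. Each had a lower and an upper bound given by the authors. The 2 libraries of a cell line could thus not be compared with each other here. No difference given below has a replicate check. Differences therefore compare these combined libraries, and no p-value was computed. In such bulk RNA, fewer cells with a transcript and less of it per cell cannot be told apart.

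Regarding the whole table, depth could not be read from FPKM values. The study lists aligned read pairs for each library, with the fewest in the first MDA-MB-231 library. The precision was taken from the authors' bounds. Of the markers expected in MDA-MB-231, VIM had 1355 and 1768 FPKM, CD44 469.7 and 355 FPKM and EGFR 41.4 and 54.3 FPKM in MDA-MB-231 and LM2-4175, while ESR1 and PGR stayed at or below 0.0331 FPKM. ERBB2 and the epithelial gene EPCAM, also expected low, did not stay near 0. ERBB2 was at 35 and 22.8 FPKM and EPCAM at 12.3 and 4.93 FPKM. By the rule given below, EPCAM was called lower in LM2-4175, with a log2 change of -1.16. Of 14 white blood cell genes, 12 had a mean under 0.5 FPKM, CD3E and CD2 were listed at 0 in both cell lines and PTPRC, the pan-leukocyte gene CD45, had at most 0.0767 FPKM. The other 2 were CD14 and CSF1R, and the list summed to 4.53 FPKM in MDA-MB-231 and 2.89 FPKM in LM2-4175. A listed 0 can be a failed estimate, because EEF1A1, which all cells use, had an FPKM of 0 in both cell lines and the status HIDATA in place of OK.

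The promoters of the members are shown first, because most ligand genes with a mean of at least 0.5 FPKM held more CpG dinucleotides there than those listed at or near 0, where the 0 of CD80 can be a failed estimate. RefSeq promoters on GRCh38.p14, a later build than the hg19 of the table, were matched for 9 of the 10 genes with 11 entries, as CD276 and CD86 had 2 starts each. PDCD1LG2 was not matched. The 250 bases before the start are given 5′ to 3′ on the strand of the gene, with each CpG in capitals.
NT5E (chr6:85449833-85450082, plus strand): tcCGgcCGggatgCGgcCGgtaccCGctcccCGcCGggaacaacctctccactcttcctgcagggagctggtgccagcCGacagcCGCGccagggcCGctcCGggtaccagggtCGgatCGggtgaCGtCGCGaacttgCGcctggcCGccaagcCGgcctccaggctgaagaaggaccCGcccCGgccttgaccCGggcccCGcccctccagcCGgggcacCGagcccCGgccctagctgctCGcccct
CD47 (chr3:108091032-108091281, minus strand): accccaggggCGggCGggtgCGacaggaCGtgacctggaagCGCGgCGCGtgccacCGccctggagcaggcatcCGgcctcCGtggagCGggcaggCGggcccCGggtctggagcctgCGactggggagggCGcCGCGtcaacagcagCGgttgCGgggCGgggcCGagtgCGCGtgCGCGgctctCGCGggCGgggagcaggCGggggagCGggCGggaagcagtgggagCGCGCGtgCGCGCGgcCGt
CD274 (chr9:5450292-5450541, plus strand): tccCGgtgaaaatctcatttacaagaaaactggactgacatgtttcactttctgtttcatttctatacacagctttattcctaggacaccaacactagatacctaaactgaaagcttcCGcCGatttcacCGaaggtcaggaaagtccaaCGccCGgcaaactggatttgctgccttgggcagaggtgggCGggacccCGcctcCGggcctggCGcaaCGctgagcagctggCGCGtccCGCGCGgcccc
CD80 (chr3:119559615-119559864, minus strand): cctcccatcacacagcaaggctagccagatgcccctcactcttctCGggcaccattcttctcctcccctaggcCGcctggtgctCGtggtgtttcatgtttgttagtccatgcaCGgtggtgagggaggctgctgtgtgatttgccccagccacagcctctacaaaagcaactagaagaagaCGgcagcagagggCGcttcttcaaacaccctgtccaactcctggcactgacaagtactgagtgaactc
CD86, first entry (chr3:122055112-122055361, plus strand): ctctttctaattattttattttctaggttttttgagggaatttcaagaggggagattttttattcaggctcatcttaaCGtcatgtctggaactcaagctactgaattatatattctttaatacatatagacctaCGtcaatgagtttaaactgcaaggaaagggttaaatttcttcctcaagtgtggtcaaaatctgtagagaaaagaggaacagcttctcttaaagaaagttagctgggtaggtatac
The promoters of NT5E and CD47, whose RNA was abundant in both cell lines, held 28 and 39 CpG, and the promoter of CD274 held 16. In contrast, the promoters of CD80 and CD86, both at or near 0 FPKM, held 6 and 2. The median of all 35116 promoters was 11. PVR had 27 CpG and CD276 had 29 and 23 in its entries, whereas VTCN1, also near 0 FPKM, had 6 and the second entry of CD86 had 4. LGALS9 was the exception, with 1 CpG and several FPKM in both cell lines. Across 15127 genes with a promoter and an unambiguous row, a mean of at least 0.5 FPKM was found for 82.7% of the 6418 genes with 20 or more CpG and for 29.3% of the 5292 genes with 10 or fewer.

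In both cell lines the ligand genes fell into 4 tiers whose order was the same apart from genes near 0. NT5E stood alone at the top and held 68.5% of the summed FPKM of the 10 genes in MDA-MB-231 and 72.6% in LM2-4175. It was followed by PVR, CD47 and CD276 between 32.1 and 48.5 FPKM, then by CD274, LGALS9 and PDCD1LG2 between 2.55 and 10.3 FPKM, and last by VTCN1, CD86 and CD80 at 0.0604 FPKM or less. Within each tier, the bounds of genes next to each other in the order overlapped, and between tiers they were apart. As FPKM is scaled to transcript length, these levels can be set against each other. The median of all 13911 genes with a status of OK and a mean of at least 0.5 FPKM, called the genes tested below, was 11.9 FPKM in MDA-MB-231 and 11.6 FPKM in LM2-4175. The upper 2 tiers lay above it and the lower 2 tiers below it.

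**Figure D1:**
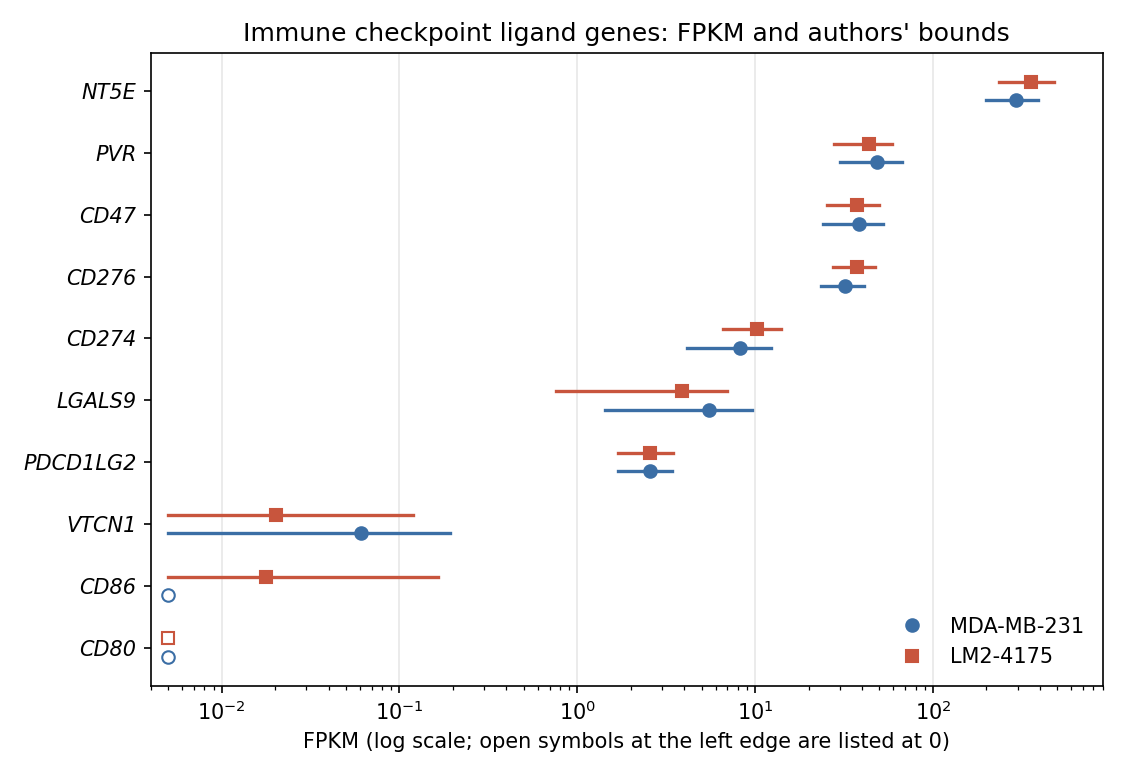
FPKM of the 10 ligand genes on a log axis in MDA-MB-231 (circles) and LM2-4175 (squares), with lines from the authors' lower to upper bound, cut at the left edge where the lower bound is 0. NT5E lies at 294.4 and 358.4 FPKM, 3 genes lie between 32.1 and 48.5 FPKM, and the bounds of the cell lines overlap for each gene that has them.

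None of the ligand genes was called different between MDA-MB-231 and LM2-4175 by the rule used here, in which (FPKM + 1) had to change by at least 1.5-fold and the bounds of the cell lines had to be apart. This rule called 9.27% of all genes tested, 4.67% (649 genes) higher and 4.61% (641 genes) lower in LM2-4175. The study itself compared the cell lines with Cuffdiff, at 1.5-fold and a q-value threshold, and reported more genes in each direction than this rule. Of the 10 ligand genes, 7 passed the filter on mean FPKM, and 0 of these 7 were called in either direction. The FPKM was higher in LM2-4175 for 4 of them and lower for 3, and their median log2 change was 0.01, against -0.04 for all genes tested. A change of at least 1.5-fold without regard to the bounds was found for 22.1% of the genes tested and again for 0 of the 7. The bounds alone parted for 9.39% of the genes tested, and the fold with a 95% interval of the difference that left out 0 called 14.4%, in each case with 0 of the 7.

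**Figure D2:**
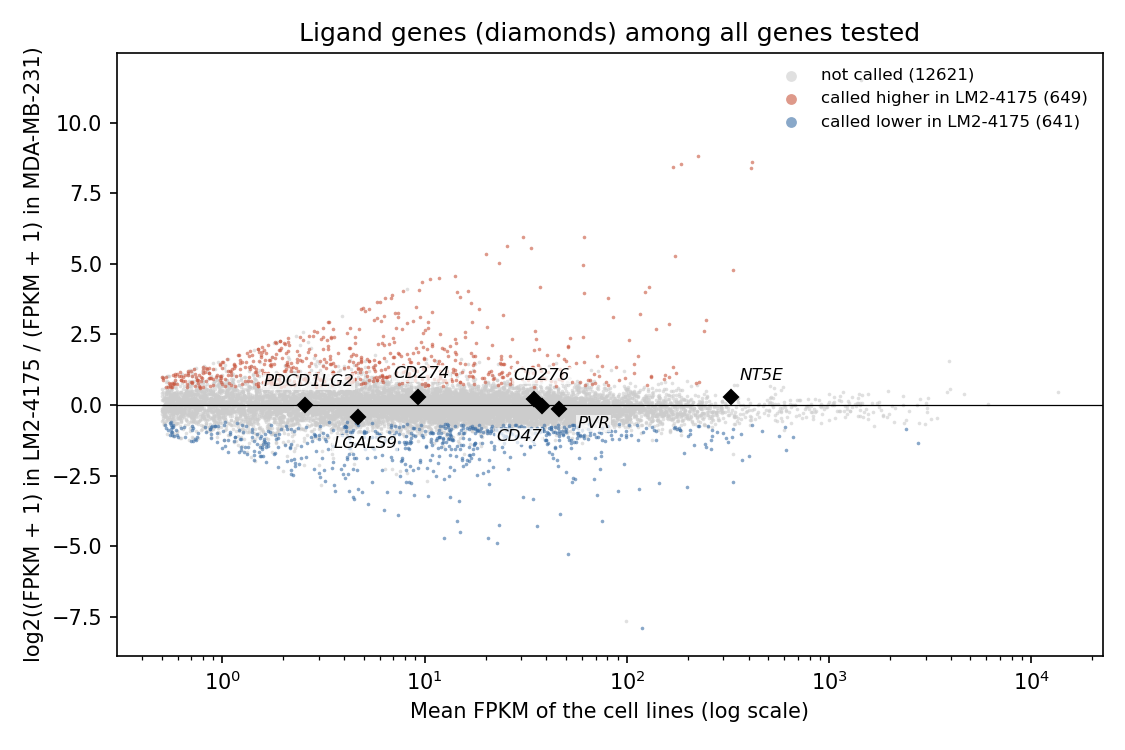
Log2 change of (FPKM + 1) from MDA-MB-231 to LM2-4175 against mean FPKM (log axis) for 13911 genes tested, with the 7 ligand genes tested as black diamonds. All 7 diamonds lie among the grey genes that were not called, between -0.42 and 0.28 on the log2 scale.

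The ligands of PD-1 are neighbours on chromosome 9 of GRCh37. CD274 (ENSG00000120217, 5450503 to 5470566, plus strand) encodes PD-L1, and PDCD1LG2 (ENSG00000197646, 5510531 to 5571282, plus strand) encodes PD-L2. CD274 reached 8.27 FPKM (bounds 4.17 and 12.4) in MDA-MB-231, against 10.3 (bounds 6.62 and 14) in LM2-4175. The ratio was 1.25 with an interval of 0.684 to 2.26, a 95% interval for which the distance to a bound was read as 2 standard errors (SE). PDCD1LG2 reached 2.55 FPKM (bounds 1.71 and 3.4) in MDA-MB-231, against 2.58 (bounds 1.69 and 3.47), a ratio of 1.01 (interval 0.632 to 1.62), and its change of 0.01 on the log2 scale turned to -0.06 after quantile normalization. CD274 was thus the more abundant of the pair, by 3.24-fold in MDA-MB-231 and by 3.99-fold in LM2-4175, with bounds apart in both. No exon of another gene overlapped either gene, and no stretch of 50 bases in their transcripts occurred in another gene.

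The CD274 promoter is shown again with the letters of an interferon response element in capitals, since interferon gamma is the best known inducer of PD-L1 and acts through IRF1. The letters searched were TTTCNNTTTC and, for the other strand, GAAANNGAAA.
CD274, chr9:5450292-5450541, plus strand: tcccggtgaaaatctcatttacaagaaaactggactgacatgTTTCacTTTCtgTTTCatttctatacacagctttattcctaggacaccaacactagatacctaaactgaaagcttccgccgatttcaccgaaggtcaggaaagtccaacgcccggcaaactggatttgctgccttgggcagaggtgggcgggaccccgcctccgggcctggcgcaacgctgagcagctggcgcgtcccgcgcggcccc
The 2 matches overlap in their middle TTTC. Of all promoters of the same length, 3.02% held at least 1 match, and no other member with an entry had one in these 250 bases. A match of letters does not show binding. IRF1 itself reached 33.5 FPKM (bounds 24 and 43.1) in MDA-MB-231, against 20.4 (bounds 14.4 and 26.4) in LM2-4175. Its bounds overlapped and it was not called. In GENCODE 44, exons on the opposite strand overlap 22.9% of its exon bases, but there the gene extends beyond the locus that was quantified. IFNGR2, a chain of the interferon gamma receptor, fell in LM2-4175, from 54.1 FPKM (bounds 38.1 and 70) to 25.8 (bounds 17.8 and 33.7), a log2 change of -1.04, and was called lower, while exons of TMEM50B on the opposite strand overlap 15% of its exon bases.

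The other B7 family members included CD276 in the second tier and 3 genes listed at or near 0 FPKM. CD276 (B7-H3, ENSG00000103855), a B7 protein found on many tumours, lies on chromosome 15 from 73976307 to 74006855 on the plus strand. It reached 32.1 FPKM (bounds 23.4 and 40.8) in MDA-MB-231, against 37.4 (bounds 27.5 and 47.3) in LM2-4175, a ratio of 1.17 with an interval of 0.805 to 1.69, the narrowest of the 7 genes. VTCN1 (B7-H4, ENSG00000134258, chromosome 1, 117686209 to 117753582, minus strand), an inhibitor of T cells, reached 0.0604 FPKM (bounds 0 and 0.192) in MDA-MB-231, against 0.0201 (bounds 0 and 0.119). CD86 (ENSG00000114013, chromosome 3, 121774209 to 121839986, plus strand) had a listed 0 in the MDA-MB-231 column and 0.0178 FPKM (bounds 0 and 0.165) in LM2-4175. CD80 (ENSG00000121594, chromosome 3, 119243140 to 119278461, minus strand) was listed at 0 in both cell lines, and 24.8% of its exon bases overlap TIMMDC1 on the opposite strand, so that its 0 is not read as absence. These 3 genes did not pass the filter, and no fold is given for them.

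PVR and CD47 had ratios close to 1. PVR (CD155, ENSG00000073008, chromosome 19, 45147098 to 45169430, plus strand) reached 48.5 FPKM (bounds 30 and 66.9) in MDA-MB-231, against 43.6 (bounds 27.9 and 59.2) in LM2-4175, a ratio of 0.899 with an interval of 0.539 to 1.5. In GENCODE 44, a later release than that of the study, exons of CEACAM19 and of ENSG00000279095 on the same strand overlap 20.6% of its exon bases. Whether reads there were split was not tested. CD47 (ENSG00000196776, chromosome 3, 107761938 to 107810709, minus strand) reached 38.4 FPKM (bounds 24.1 and 52.7) in MDA-MB-231, against 37.7 (bounds 25.5 and 49.8). Its ratio was 0.981 with an interval of 0.606 to 1.59, and the log2 change of -0.03 turned to 0.05 on the TPM scale, 0.02 after centring on the median of all genes and 0.09 after quantile normalization.

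LGALS9 had the least precise value and NT5E the highest level. LGALS9 (galectin-9, ENSG00000168961, chromosome 17, 25956824 to 25976586, plus strand), a sugar-binding protein and ligand of HAVCR2 (TIM-3), reached 5.51 FPKM (bounds 1.43 and 9.59) in MDA-MB-231, against 3.86 (bounds 0.755 and 6.97) in LM2-4175, a ratio of 0.701 with an interval of 0.24 to 2.05. Of the stretches of 50 bases in its transcripts, 13.2% also occurred in other genes, led by the near-identical copies LGALS9C and LGALS9B, so its value is uncertain. LGALS9C had 0.241 FPKM in MDA-MB-231 and 0.869 FPKM in LM2-4175, and LGALS9B had 0.0687 and 0.378 FPKM. The 3 genes together had 5.82 FPKM in MDA-MB-231 and 5.11 FPKM in LM2-4175, a ratio of 0.878, which is closer to 1 than that of LGALS9 alone. NT5E (ENSG00000135318, chromosome 6, 86159302 to 86205509, plus strand) reached 294.4 FPKM (bounds 198.4 and 390.4) in MDA-MB-231, against 358.4 (bounds 236.5 and 480.4), a ratio of 1.22 with an interval of 0.767 to 1.93. Among the 57807 genes with a status of OK, NT5E ranked 288 in MDA-MB-231 and 205 in LM2-4175. No exon of another gene overlapped it.

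The bounds limit what could be seen. With the relative width that the bounds had, CD276 would have had to change by 1.73-fold and LGALS9 by 8.9-fold upwards before its bounds parted, and the other 5 genes by 2.01-fold to 2.33-fold. A 1.5-fold change was therefore not detectable for any of the 7 genes by the bounds. A doubling in LM2-4175 lay outside the intervals of PDCD1LG2, CD276, PVR, CD47 and NT5E, but within those of CD274 and LGALS9.

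**Figure D3:**
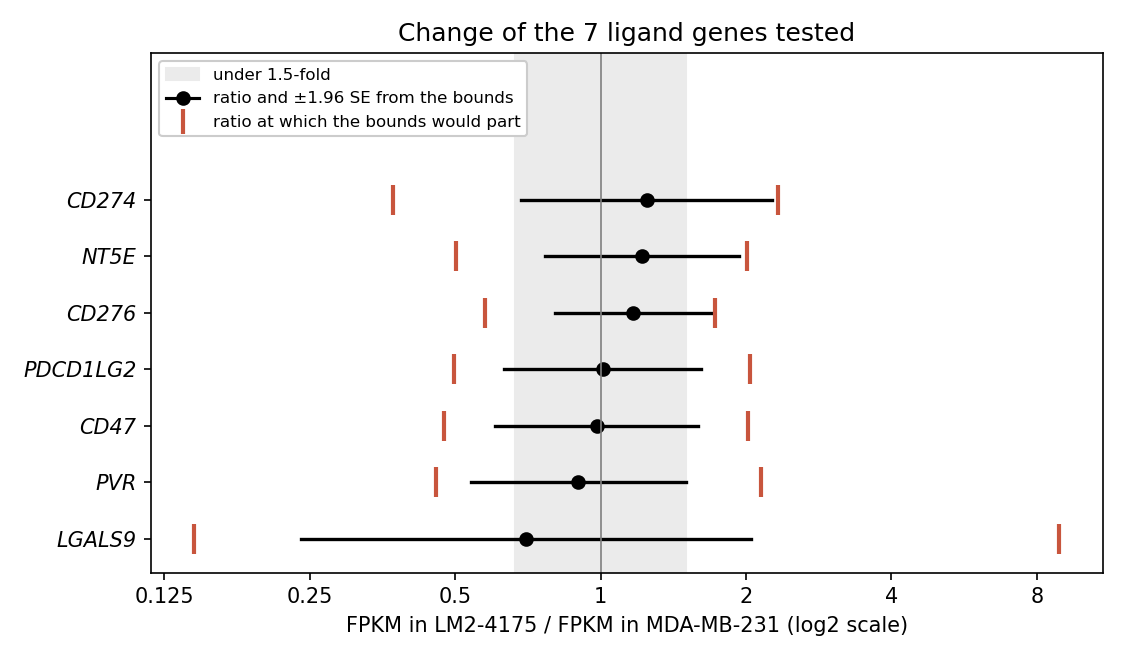
Ratio of the FPKM in LM2-4175 to that in MDA-MB-231 (log2 axis) for the 7 ligand genes tested, with 95% intervals from the bounds (black) and, in red, the ratio at which the bounds would part if they kept their relative widths. The ratios run from 0.701 for LGALS9 to 1.25 for CD274, within the grey zone under 1.5-fold, and each interval includes 1.

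Several genes were called in the lists of partners, relatives and other related genes of the ligands. These 8 lists held 112 genes, of which 111 were found and 67 were tested. Of these 67, 4 were called higher and 6 lower in LM2-4175, 14.9% against 9.27% of all genes tested. The lists were chosen with earlier results of these data known, so the shares do not form an independent comparison. Among 11 receptors of the ligands, 10 had a mean under 0.5 FPKM, including PDCD1, CTLA4, TIGIT and HAVCR2. The 1 receptor tested was SIRPA, the partner of CD47, which fell in LM2-4175, from 3.23 FPKM (bounds 2.34 and 4.13) to 1.26 (bounds 0.85 and 1.67), a log2 change of -0.90, with 4.2% of its exon bases overlapped from the opposite strand. CD28, CD96 and SIRPG, chosen after their values were seen, had 0.0284, 0.032 and 0.0702 FPKM in MDA-MB-231 and 0.775, 0.574 and 0.614 FPKM in LM2-4175, with bounds that overlapped for all 3.

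Of the signals around CD47, 1 was called, beside 9.27% of all genes tested. THBS1, the secreted thrombospondin that also binds CD47, fell in LM2-4175, from 351.6 FPKM (bounds 206.5 and 496.7) to 46.4 (bounds 30.2 and 62.5), a 7.58-fold lower level and the only call among 5 genes tested in the list of phagocytosis signals, whose median log2 change was -0.38. Exons on the opposite strand overlap 7.58% of its exon bases. CALR, which encodes the engulfment signal calreticulin, had 847.4 and 616 FPKM, and its receptor LRP1 reached 5.15 FPKM (bounds 0.638 and 9.66) in MDA-MB-231, against 17.2 (bounds 5.72 and 28.7), with overlapping bounds for both. QPCTL, the enzyme that modifies CD47 for binding to SIRPA, had 10.5 and 7.86 FPKM and was not called. CD24 was not found under this symbol and was not analysed here.

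Of 20 adenosine genes around NT5E, 13 were tested, 2 were called higher and 1 lower, beside 9.27% of all genes tested, and the median log2 change was -0.39. With a fold of 2, neither higher call remained and the lower one did. ADORA2B, the adenosine receptor of low affinity, rose in LM2-4175, from 50.6 FPKM (bounds 38.7 and 62.6) to 88.1 (bounds 67.7 and 108.5), a log2 change of 0.79. ENTPD3, which removes phosphates from ATP and ADP, rose in LM2-4175, from 1.21 FPKM (bounds 0.653 and 1.76) to 3.05 (bounds 1.97 and 4.14), a ratio of 2.53 without the added 1. ENPP1, which makes AMP from ATP, fell in LM2-4175, from 34.6 FPKM (bounds 25.9 and 43.3) to 14.7 (bounds 10.9 and 18.6), a log2 change of -1.18. ENTPD1 (CD39), the enzyme that usually supplies AMP to NT5E, was low at 1.52 FPKM (bounds 0.994 and 2.05) in MDA-MB-231, against 1.48 (bounds 0.953 and 2). Exons of other genes in GENCODE 44 overlap 41% of its exon bases, so reads there could be split and its low value is uncertain. ADORA2A, the receptor most studied on T cells, had 3.79 and 1.93 FPKM with lower bounds of 0, and exons of other genes overlap 60% of its exon bases.

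Among relatives of the ligands, 1 nectin-like gene and 1 galectin were called, beside 9.27% of all genes tested. None of 8 tested genes of the other B7 and butyrophilin list was called, although 7 of the 8 had a lower FPKM in LM2-4175 (median log2 change -0.28). A lower FPKM there was also found for 7585 of all 13911 genes tested (median -0.04). On the log2 scale of FPKM + 1, the largest decreases of this list were in BTN3A3, with 7.68 and 4.63 FPKM, and BTN3A1, with 10.03 and 6.48 FPKM, which encode butyrophilins sensed by gamma delta T cells. BTN3A3, with a log2 change of -0.63, was called lower when the 95% interval of the difference in FPKM took the place of the bounds. Of 5 nectins and nectin-like genes tested (median log2 change -0.24), the adhesion gene CADM1 rose in LM2-4175, from 0.798 FPKM (bounds 0 and 1.61) to 28.1 (bounds 15.9 and 40.3), the only call. PVRL2 (nectin-2), which like PVR binds TIGIT and CD226, reached 99.2 FPKM (bounds 65.5 and 132.9) in MDA-MB-231, against 56.9 (bounds 37.6 and 76.3), a log2 change of -0.79 with overlapping bounds. Of 5 other galectins tested (median -0.23), LGALS12 was called lower with 4.48 FPKM (bounds 3.01 and 5.95) in MDA-MB-231 and a listed 0 in LM2-4175. Its status was OK in both cell lines, unlike that of EEF1A1. Whether its 0 came from a failed estimate that was not flagged was not tested. LGALS1 was the most abundant galectin, with 1789 and 1519 FPKM and overlapping bounds.

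Of 26 genes that control PD-L1, all were tested, 19 had a lower and 7 a higher FPKM in LM2-4175, and the median log2 change was -0.15. Of all 13911 genes tested, 7585 had a lower and 6326 a higher FPKM there, with a median of -0.04. Only IFNGR2, described above, and B3GNT3 were called, beside 9.27% of all genes tested. B3GNT3, a glycosyltransferase that modifies PD-L1, rose in LM2-4175, from 0.844 FPKM (bounds 0.421 and 1.27) to 2.46 (bounds 1.6 and 3.33), a log2 change of 0.91. CMTM6, which keeps PD-L1 at the cell surface, reached 59.2 FPKM (bounds 43.8 and 74.6) in MDA-MB-231, against 56.8 (bounds 42.2 and 71.3). Among 12 other inhibitory ligands and related genes, 4 were tested (median 0.08), and SERPINB9, an inhibitor of granzyme B, fell in LM2-4175, from 27 FPKM (bounds 20.8 and 33.2) to 6.76 (bounds 5.05 and 8.46), a log2 change of -1.85 and the only call. HLA-E and HLA-G were listed at 0 in both cell lines while B2M, the light chain they pair with, had 1922 and 1704 FPKM, so these zeros are not read as absence.

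**Figure D4:**
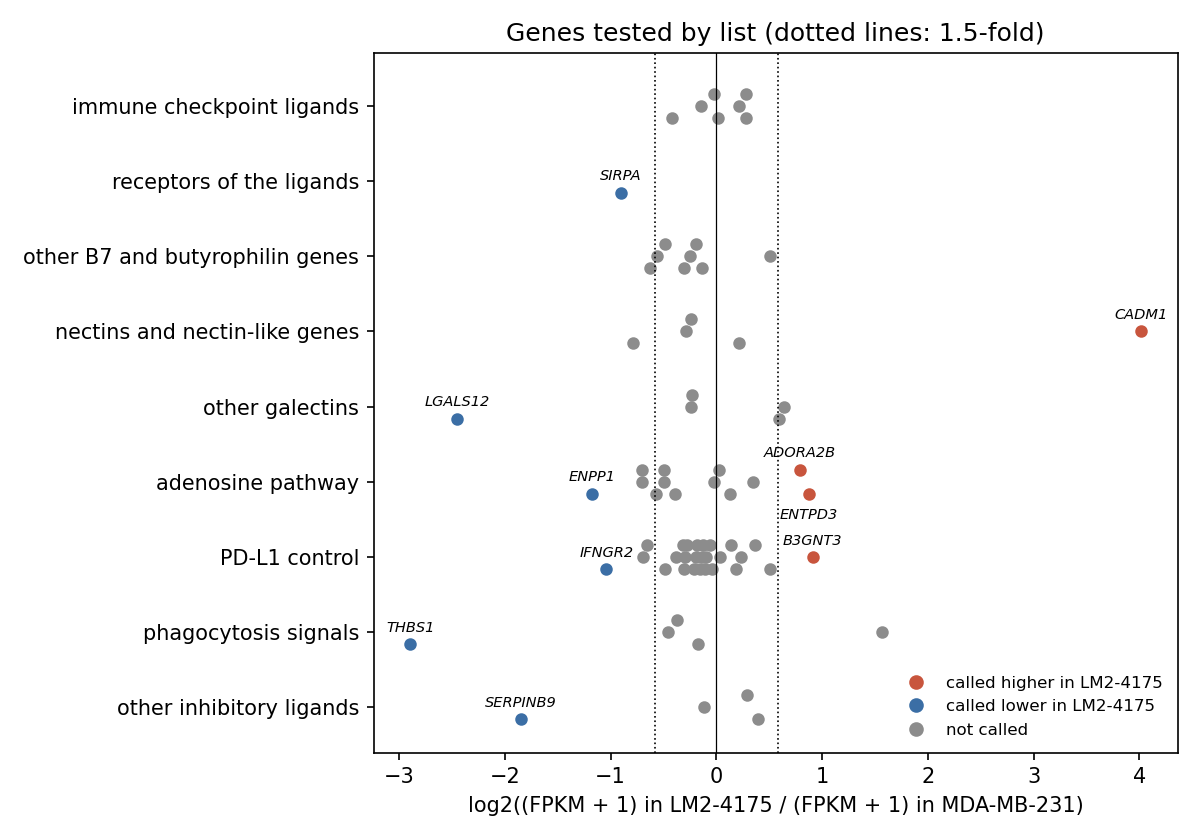
Log2 change of (FPKM + 1) from MDA-MB-231 to LM2-4175 for each gene tested in 9 lists, with genes called higher in red, genes called lower in blue and genes not called in grey. The 7 ligand genes lie between the dotted lines at 1.5-fold, while THBS1, LGALS12, SERPINB9 and CADM1 lie farthest from 0 among the genes called.

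The genes around the ligands were examined for changes of whole neighbourhoods. Within 1 Mb of the members, 151 other genes were tested, of which 7 were called higher and 2 lower, 5.96% against 9.27% of all genes tested. None of the 14 genes around CD274 and PDCD1LG2 was called, including JAK2, a kinase of interferon signalling, at 2.07 FPKM (bounds 1.32 and 2.82) in MDA-MB-231, against 1.65 (bounds 1.05 and 2.26) in LM2-4175. Around CD276, 11 of 15 genes had a higher FPKM in LM2-4175, beside 6326 of all 13911 genes tested. The 3 called were SEMA7A from 26.6 to 66.4 FPKM, UBL7 from 26.2 to 49.1 FPKM and ARID3B from 1.6 to 4.13 FPKM. Around PVR, 1 of 52 genes, PLAUR, was called higher and 2, APOC1 and BCAM, were called lower. Near the genes listed at or near 0, HCLS1 within 1 Mb of CD86 rose from 1.78 to 7.1 FPKM, and PTGFRN and IGSF3 within 1 Mb of VTCN1 rose from 1.3 to 4.06 FPKM and from 3.25 to 9.87 FPKM. No neighbour of CD47, CD80, LGALS9 or NT5E was called.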

How the data were processed

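RNA-Seq libraries, 2 for each cell line, were sequenced with paired reads. Per the study's methods and the submitters' processing notes, reads were mapped to hg19 with TopHat2 and genes of the GENCODE annotation were quantified with Cufflinks. The study compared the cell lines with Cuffdiff, and its results for single genes were not used here. The deposited values are FPKM, which the authors combined over the libraries of a cell line, beside confidence bounds and a quantification status. The use of strand, and what spread the bounds include, are not given in the sources used here.

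A change is the log2 ratio of FPKM + 1, LM2-4175 over MDA-MB-231, and is understated where FPKM is low. Genes whose status was OK in each cell line and with a mean of at least 0.5 FPKM were tested, and a gene was called at 1.5-fold with bounds apart. limma, intended had values per library been given, was not run. Half-widths of the upper side, divided by 2, served as SE. GENCODE 44 on GRCh37, the assembly of hg19, gave positions and overlapping exons, and RefSeq gave promoters. The study quantified with an earlier GENCODE release, so its gene models and overlaps can differ from those given here. Named are all members, the genes called in each list and at most 4 others with the largest changes, called neighbours, and genes marked as chosen after their values were seen or that tell what the table holds. ENTPD1, CMTM6, JAK2, QPCTL, CALR, B2M, HLA-E, HLA-G and the receptors under 0.5 FPKM were also named after their values were seen. The members and lists were chosen with earlier results of these data known. Python 3.11.15, NumPy 2.4.6, pandas 2.3.3 and Matplotlib 3.10.9 were used. The call was also run on simulated data with less spread than the SE above, so that run does not measure its error in these data. The values of 2 genes of the lists are not reported here.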

Additional observations from a re-analysis of the deposited data

How the results depend on the processing

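Under each of 12 alternatives (other pseudocounts, filters, fold thresholds, call rules and normalizations) 0 ligand genes were called higher and 0 lower. With a mean of at least 5 FPKM, LGALS9 and PDCD1LG2 were not tested. The sign of the change turned for CD47, to 0.0535 on the TPM scale, 0.0179 after median centring and 0.0851 after quantile normalization, and for PDCD1LG2, to -0.0561 after quantile normalization. The lists of partners, relatives and other related genes had 4 higher and 6 lower calls except with the fold alone (7 and 12), a fold of 2 (1 and 5), a mean of at least 5 FPKM (2 and 4) and 1.5-fold with the 95% interval (4 and 9). In this section the 95% interval is that of the difference in FPKM, not that of the ratios given above. With a fold of 2, SIRPA, ENTPD3, ADORA2B and B3GNT3 lost their calls. PVRL2, IRF1 and BTN3A3 were called lower with the 95% interval. Of all genes, the fold alone called 1434 higher and 1640 lower, the 95% interval 919 and 1090, a fold of 2 450 and 403, a mean of at least 5 FPKM 321 and 443, and TPM scaling 735 and 547. Of the neighbours, the fold alone called 16 higher and 10 lower, the 95% interval 10 and 4, and a fold of 2 and a mean of at least 5 FPKM each called 4 higher and 2 lower.

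No paired analysis was possible because the table gives 1 combined value per cell line. The fits without single libraries were not run. The precision was read from the bounds.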
